A study of Mus musculus with 70 samples.

Results

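The early healing of 2 bone injuries was compared gene by gene at 7 d, as the response of the femur to a full fracture minus the response of the ulna to a stress fracture. Each response was the log2 level in injured bone minus that in intact bone of the same kind, and the difference between both responses, called the difference from here on, was tested for every gene. It rested on 28 of the 67 libraries with a table column, which were 5 fractured femurs, 10 intact femurs, 4 stress-fractured ulnas and 9 intact ulnas. The labels list 70 samples, of which 3 were not analysed here. Of 45634 gene names shared by the tables of both bones, 21092 passed the filter on low values and were tested.

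All mice were female c57bl/6 animals of 12 wk, and no transgene, allele or agent is named. Intact limbs were left limbs of injured animals, and in each bone 2 of the 10 in the labels came from animals of the 7 d group. A full fracture was made only in femurs and a stress fracture only in ulnas, so the kind of injury and the bone cannot be told apart. The protocol also names a 7 mm section with the marrow spun out for the femur and a 5 mm section with no such step for the ulna. The labels name the 7 d femurs callus and the 7 d ulnas periosteum, but the injured ulnas still held 118, 107, 97.9 and 123 scaled RPKM (defined below) of Sost, which marks osteocytes inside the bone.

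A broken bone that can move heals largely through endochondral ossification, in which progenitor cells form a soft cartilage callus whose cells enlarge, mineralise their matrix and are replaced by bone. A crack that leaves the bone stable heals largely through intramembranous ossification, in which cells of the periosteum become osteoblasts and lay down woven bone directly. Osteocytes, buried in the mineral, and osteoclasts, which resorb it, take part in both courses.

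Depth, recovered from the steps of the deposited values, ran from 8.12 to 30.8 M assigned reads in these 28 libraries. Levels are RPKM scaled by the median of ratios over all 67 libraries, and changes are on the log2(scaled RPKM + 0.1) scale with the standard error of a limma fit of all 67 libraries, which understates the change of genes near 0. P-values were adjusted by the method of Benjamini and Hochberg over all genes tested, at a threshold of 0.05, and rose, fell and called refer to it. Values of single libraries are given in the order 1 to 5 for fractured femurs and 1, 2, 4 and 5 for stress-fractured ulnas, and as lowest, median and highest for the intact limbs. In these bulk samples, fewer cells of a type and less RNA per cell cannot be told apart.

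At 7 d the injuries differed in a large share of the transcriptome. The difference was above 0 in 4964 genes, 23.5% of those tested, and below 0 in 4947 genes, also 23.5%. It reached a log2 value of at least 1 in 1324 genes and of at most -1 in 2506. Full fracture raised 6598 genes (31.3%) and lowered 7200 (34.1%), whereas stress fracture raised 3609 (17.1%) and lowered 2943 (14%). Both injuries raised 2625 genes, of which 1332 rose more in the femur, 106 rose more in the ulna and 1187 had no called difference. The difference was thus called in 9911 genes (47%), and the responses of single libraries of the bones did not overlap in 9578 (45.4%). The median difference over all genes was -0.10. On the RPKM as deposited that median was -0.21 and the calls split into 3744 above and 5833 below 0, so the split depends on the scaling.

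Genes called in opposite directions were fewer. Full fracture raised and stress fracture lowered 415 genes, 1.97% of those tested, and the converse held for 292 genes, 1.38%. Cell division genes stood among the first group and bone mineral genes among the second, as described below. Without stress-fractured ulna 1 the first count was 267.

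**Figure D1:**
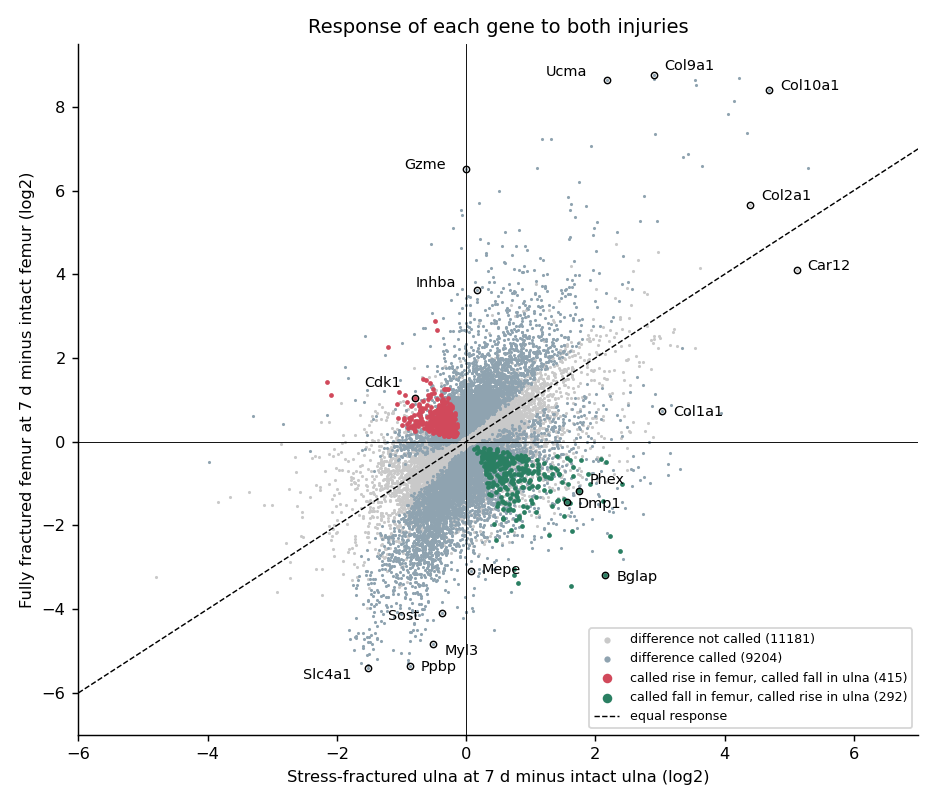
Log2 response to full fracture (femur, vertical axis) against that to stress fracture (ulna, horizontal axis) for each of 21092 genes, with the dashed line marking equal responses. Grey points have no called difference, blue-grey points a called one, and red (415) and green (292) points are called in opposite directions. Ucma and Col9a1 lie far above the line and Bglap far below it.

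Cartilage matrix genes gave the largest list median. Of 18 genes of the extracellular matrix of cartilage, 16 were tested (Cnmd and Snorc were not). The difference was above 0 in 12 and below 0 in none, against 23.5% each way over all genes. Its median was 3.96, against -0.10 over all genes tested. Single-library responses of the bones did not overlap in 12 of the 16, against 45.4% of all genes tested. Fractured femurs raised 15 of the 16 (median 6.66) and stress-fractured ulnas 13 (median 2.67), against 31.3% and 17.1% of all genes.

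Col9a1, a chain of the type IX collagen that coats cartilage fibrils (chr1:24177610-24252684, GRCm38), was at 0.976, 1.17 and 1.75 scaled RPKM in intact femurs and at 652, 419.8, 763, 639.9 and 416 in fractured ones. In ulnas it was at 0.477, 0.901 and 1.28 in intact bones and at 9.29, 14.4, 1.08 and 12.8 after stress fracture. Every fractured femur stood above every other library, and stress-fractured ulna 4 lay within the range of the intact ulnas. Col9a1 rose by 8.76 ± 0.53 in the femur and by 2.90 ± 0.59 in the ulna, a difference of 5.86 ± 0.79 (adjusted p = 1.43e-08). Ucma, a secreted protein of growth plate cartilage (chr2:4976122-4985748), reached 207, 163, 223, 185 and 102 in fractured femurs from 0.139, 0.389 and 0.47 in intact ones. In the ulna it went from 0, 0.0566 and 0.462 to 0.855, 0.743, 0.0804 and 1.44, and the difference was 6.47 ± 0.79 (adjusted p = 1.09e-09).

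Matrix genes with other roles also had differences above 0. Acan, the core protein of the large cartilage proteoglycan, differed by 3.43 ± 0.63 and Hapln1, which links it to hyaluronan, by 4.41 ± 0.73. Matn1 and Matn3, matrilins that join cartilage fibrils, differed by 5.92 ± 0.69 and 4.47 ± 0.65, and Epyc, a small proteoglycan of the growth plate, by 5.42 ± 0.61. Lect1, an older symbol of Cnmd, the vessel-repelling chondromodulin, differed by 5.75 ± 0.85. Adjusted p of these 6 genes was 8.43e-06 or smaller. The rise of Matn1 in the ulna, 1.32 ± 0.51, lost its call without intact ulna 1, 2, 5, 6, 9 or 10 or stress-fractured ulna 1, 2 or 5 (adjusted p up to 0.192).

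Not every member of the list followed. Col2a1, the main collagen of cartilage (chr15:97975602-98004695), went from 40.4, 82.7 and 125 to 4335, 1975, 5423, 5960 and 2826 in femurs and from 2.49, 5.32 and 13.5 to 177, 212, 20.3 and 231 in ulnas. All injured libraries of both bones stood above their intact ones. It rose by 5.65 ± 0.58 and 4.40 ± 0.63, and the difference of 1.25 was not called (95% confidence interval -0.47 to 2.97, adjusted p = 0.233). In the authors' deposited table the Col2a1 responses were 5.41 and 3.25 and their difference 2.16. Nor was it called for the fibril collagens Col11a1 (-0.52, adjusted p = 0.317) and Col11a2 (-0.97, adjusted p = 0.0715), or for Chad, a cartilage cell adhesion protein.

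Stress-fractured ulna 4 held less cartilage transcript than the other 3. Its cartilage score, the mean log2 difference of the list from intact ulnas, was 1.25, against 5.29 to 6.26 in fractured femurs and at most 3.05 in ulnas. Without it the list had 12 differences above and 1 below 0, with a median of 3.46 and an ulna median of 2.99. There was 1 below 0 as well without fractured femur 4 or intact ulna 1 or 2, and on the RPKM as deposited (11 above).

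Regulators of the chondrocyte also responded more to full fracture. Of 9 transcription factors and receptors of cartilage, 7 had a difference above 0 and none below (median 2.12). Over all genes 23.5% were called each way. Full fracture raised 7 (median 2.48), against 31.3% of all genes. Stress fracture raised 4 and lowered 1 (median 0.19), against 17.1% and 14% of all genes. Sox9, the master regulator of cartilage, rose by 4.89 ± 0.26 in the femur and 1.61 ± 0.29 in the ulna, a difference of 3.29 ± 0.39. Its partner Sox5 rose by 2.38 ± 0.19 in the femur and stood at 0.13 in the ulna. Foxa3, a factor of late chondrocytes, differed by 4.06 ± 0.45, and Wwp2, a ubiquitin ligase expressed with Sox9, by 2.12 ± 0.16 (adjusted p = 1.63e-16). Sox6 and Barx2 had no called difference.

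**Figure D2:**
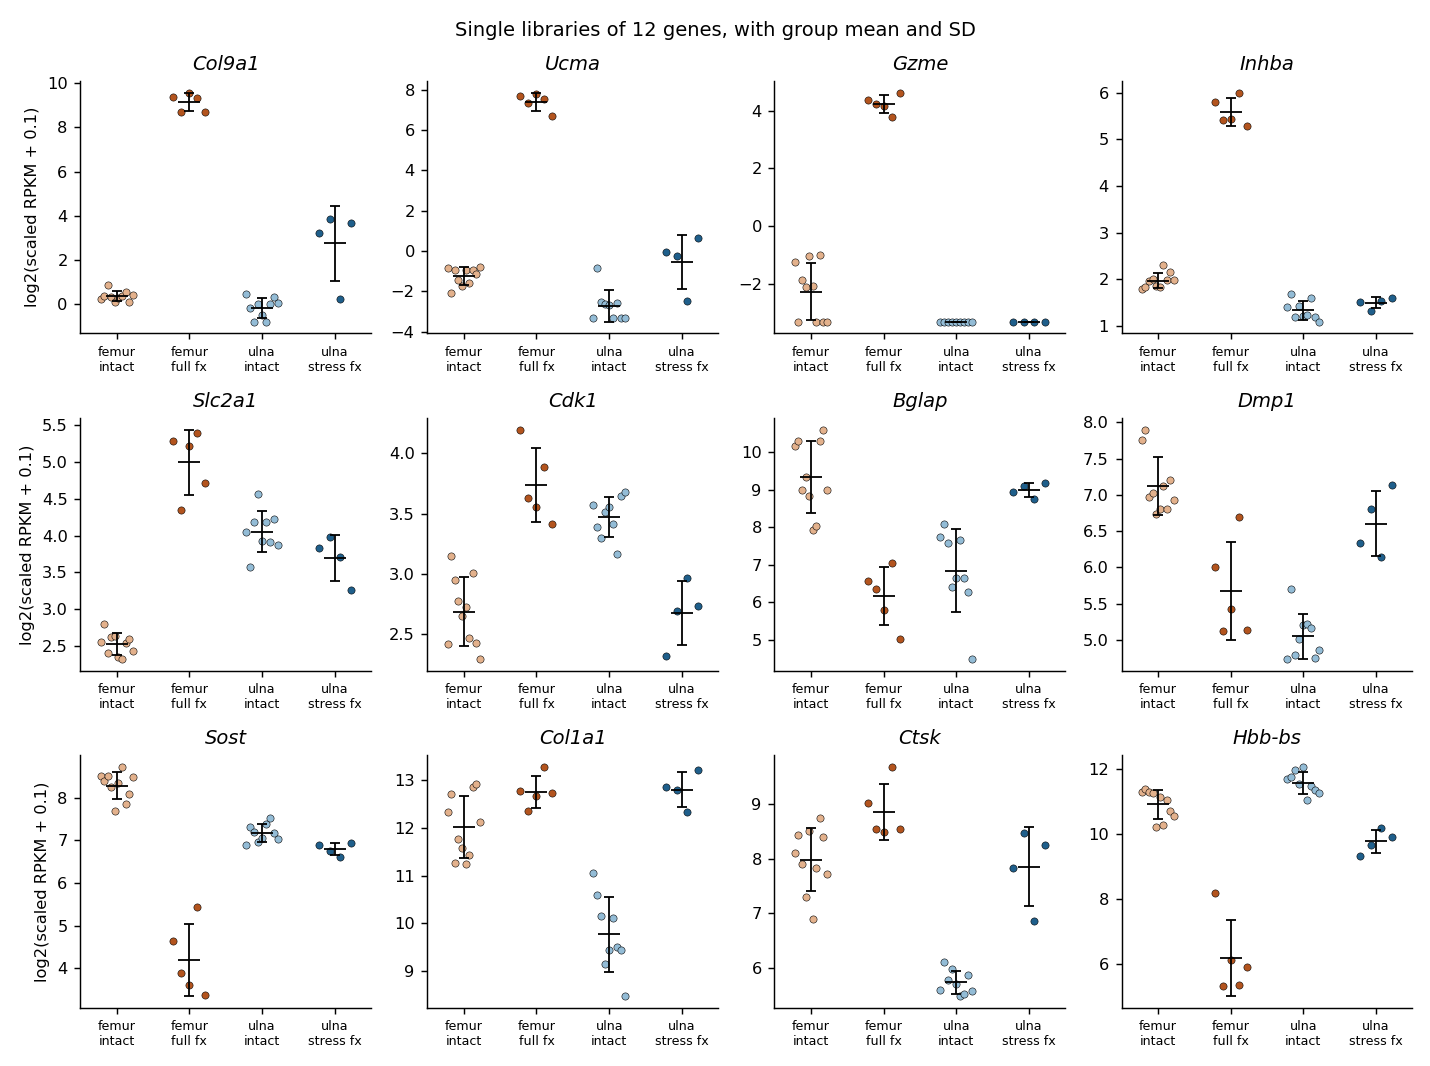
Log2(scaled RPKM + 0.1) of 12 genes in single libraries (points) of intact femur (n = 10), femur 7 d after full fracture (5), intact ulna (9) and ulna 7 d after stress fracture (4), with group mean and SD. Col9a1, Ucma, Gzme, Inhba and Slc2a1 have their highest mean in fractured femurs, whereas Bglap and Dmp1 are lower in fractured than in intact femurs and higher in stress-fractured than in intact ulnas.

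Outside cartilage, 3 granzymes stood among the 12 largest differences above 0 under the rules for named genes (given below). Granzymes are serine proteases known from the granules of cytotoxic lymphocytes, and Gzmc, Gzmd and Gzme are neighbours in a cluster on chromosome 14. Gzme (chr14:56117626-56120625) was at 0, 0.134 and 0.401 scaled RPKM in intact femurs and at 20.8, 18.7, 18, 13.7 and 24.7 in fractured ones, and was listed at 0 in all 13 ulnas. Its fitted difference was 6.51 ± 0.50 (adjusted p = 6.8e-16). With the ulnas at 0 this size depends on the 0.1 added and is no bound. Gzmc reached 7.27, 6.58, 7.88, 5.96 and 7.49 and Gzmd 8.42, 8.31, 7.71, 6.49 and 15.5 in fractured femurs, against at most 0.0737 in injured ulnas. These genes belong to a family of related copies, and how the authors' counting divided reads between them was not tested, so values of single copies are uncertain. Of 10 T cell markers, none rose in either bone. Lck, a kinase of T cell receptor signalling, fell by 1.55 ± 0.20 in the femur and 0.78 ± 0.22 in the ulna. The summed level of these markers was low, at 5.86 to 7.92 scaled RPKM in fractured femurs. Which cells made the granzymes was not tested.

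The start regions of the genes with the largest differences under these rules were searched for 4 short motifs. Genes above 0 and genes below 0 were picked separately, so a shared direction within each was part of the choice. RefSeq (GRCm38.p6) gave a window of 300 bases, 250 before to 50 after the start, for 17 of the 24 genes. AACCACA, the core that RUNX factors bind, was in 4 of 10 windows of genes above 0 (Gzmc, Gzmd, Gzme and Ucma), in 1 of 7 of genes below 0 (Retnla), and in 5.37% of 27025 windows of the same length, with both strands searched. The windows are shown with the motif in capitals.
Gzmc, chr14:56234608-56234907, minus strand: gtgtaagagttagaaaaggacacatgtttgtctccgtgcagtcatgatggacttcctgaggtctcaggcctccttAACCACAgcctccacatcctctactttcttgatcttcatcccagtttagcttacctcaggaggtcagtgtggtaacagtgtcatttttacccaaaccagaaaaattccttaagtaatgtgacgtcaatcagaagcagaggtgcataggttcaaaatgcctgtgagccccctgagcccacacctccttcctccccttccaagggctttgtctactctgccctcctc
Gzmd, chr14:56132544-56132843, minus strand: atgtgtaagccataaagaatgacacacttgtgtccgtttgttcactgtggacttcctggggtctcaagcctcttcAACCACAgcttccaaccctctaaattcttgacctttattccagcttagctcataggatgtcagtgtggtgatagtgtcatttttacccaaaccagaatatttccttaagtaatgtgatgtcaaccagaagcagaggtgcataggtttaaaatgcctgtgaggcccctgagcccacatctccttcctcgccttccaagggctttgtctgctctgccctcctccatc
Gzme, chr14:56120576-56120875, minus strand: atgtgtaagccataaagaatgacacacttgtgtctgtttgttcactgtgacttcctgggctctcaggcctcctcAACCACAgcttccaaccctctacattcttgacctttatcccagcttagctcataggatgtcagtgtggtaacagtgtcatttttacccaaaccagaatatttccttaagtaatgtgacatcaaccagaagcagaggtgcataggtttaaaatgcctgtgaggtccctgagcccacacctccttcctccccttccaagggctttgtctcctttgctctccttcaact
Ucma, chr2:4975872-4976171, plus strand: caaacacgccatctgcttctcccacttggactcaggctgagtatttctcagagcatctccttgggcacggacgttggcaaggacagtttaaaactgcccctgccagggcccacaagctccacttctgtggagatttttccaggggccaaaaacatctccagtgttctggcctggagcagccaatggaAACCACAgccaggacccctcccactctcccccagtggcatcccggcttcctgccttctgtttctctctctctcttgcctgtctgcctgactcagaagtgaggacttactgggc
The granzyme windows are copies of each other, with 93.4% identical bases between Gzmd and Gzme and 82.7% between Gzmc and either, against 45.6% to 47.6% between Ucma and the granzymes. They therefore count as 1 sequence seen 3 times rather than as separate cases. The SOX core AACAATG was in 1 of 10 and 1 of 7 windows (3.86% of all), the GATA core AGATAA in 1 of 10 and none of 7 (11.4%), and the E-box CACGTG in none of 10 and 1 of 7 (7.24%). No matches of different motifs overlapped. A match is a description of letters and not a bound site.

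Other genes with large differences above 0 came from varied families. Moxd1, a copper monooxygenase related to dopamine beta-hydroxylase, reached 109, 66.3, 95.6, 94.5 and 67.3 in fractured femurs from a median of 0.506 in intact ones, and differed by 6.05 ± 0.41. Brinp3, a protein named for its induction by BMP and retinoic acid in neurons, reached 7.33, 8.92, 4.8, 3.42 and 8.44 against at most 0.024 in any ulna, a difference of 5.47 ± 0.28 (adjusted p = 1.74e-22). Ncmap, a protein of non-compact myelin, differed by 5.30 ± 0.54 and Ppp1r1b, an inhibitor of protein phosphatase 1, by 5.48 ± 0.66. The size for Ppp1r1b, also near 0 outside fractured femurs, ran from 3.11 to 5.68. Of 10 Schwann cell markers, Ncmap, Pmp22 and S100b, which cartilage also makes, had a difference above 0 and 4 had one below. The share over all genes was 23.5% each way.

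Hypertrophic cartilage genes, which mark the enlarged cells before they give way to bone, split. Of 10 tested, 4 had a difference above 0 and 3 below, with a median of -0.07, against 23.5% called each way over all genes. Col10a1, the collagen made by hypertrophic chondrocytes, went from 6.88, 7.25 and 9.12 to 2519, 1794, 4153, 2895 and 2098 in femurs and from 2.46, 2.81 and 7.0 to 115, 229, 10.9 and 164 in ulnas. It rose in both bones, and more in the femur by 3.70 ± 0.90 (adjusted p = 0.00053). Ihh, the hedgehog signal that prehypertrophic cells send to their neighbours, differed by 3.77 ± 0.54 (adjusted p = 4.78e-08). Members shared with osteoblasts did not follow, as Ibsp (bone sialoprotein) and Alpl (alkaline phosphatase) rose in both bones with differences of -0.58 and -0.30 that were not called (95% confidence interval -1.32 to 0.16 and 95% confidence interval -0.85 to 0.25 in that order).

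The remaining hypertrophic calls depended on single libraries. Pth1r, the receptor of parathyroid hormone, and Panx3, a channel protein, had differences of 0.63 and 1.25, and the collagenase Mmp13, the mineral-binding Spp1 and the transcription factor Mef2c of -1.13, -0.81 and -0.59. Leaving out 1 library at a time gave 2 to 4 members above and 0 to 3 below 0, with 2 above without fractured femur 3 or 4 and none below without stress-fractured ulna 1 or 2. Without stress-fractured ulna 4, whose score of 1.16 stood below the 2.65 to 2.80 of the others, the counts were 2 and 3 and the median -0.28, and on the RPKM as deposited they were also 2 and 3.

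Hedgehog signalling genes responded more to full fracture. Of 10 genes of hedgehog and parathyroid hormone related peptide signalling, 6 had a difference above 0 and none below. Over all genes the share was 23.5% each way. Full fracture raised 8 (median 1.79) and stress fracture 8 (median 0.89), against 31.3% and 17.1% of all genes. Ptch1, the receptor and target of hedgehog, differed by 1.53 ± 0.24, its transcription factor Gli1 by 1.30 ± 0.27 and Hhip, a decoy that binds the ligand, by 2.46 ± 0.43. Pthlh, the ligand that holds back hypertrophy, stood at -0.10 in the femur and 0.44 in the ulna, with no call.

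Osteoblast genes went the other way. Of 15 genes, 12 had a difference below 0 and none above, with a median of -1.21, against 23.5% below 0 over all genes. Stress fracture raised 14 of the 15 (median 1.90), against 17.1% of all genes. Full fracture raised 8 and lowered 5 (median 0.70), against 31.3% raised and 34.1% lowered over all genes.

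Bglap, which encodes the bone hormone and mineral-binding protein osteocalcin (chr3:88383501-88384464), was at 242, 576 and 1555 scaled RPKM in intact femurs and at 95, 81.5, 55.5, 131 and 32.5 in fractured ones. In ulnas it was at 22.2, 101 and 274 in intact bones and at 492, 549.7, 434 and 580.3 after stress fracture. The fractured femurs lay below every intact femur, and the injured ulnas above every intact ulna. It fell by 3.19 ± 0.47 in the femur and rose by 2.16 ± 0.52 in the ulna, a difference of -5.35 ± 0.70 (adjusted p = 7.24e-09). Its near copy Bglap2, with which reads are hard to divide, differed by -5.06 ± 0.61. Phex, a protease that controls phosphate balance, also fell in the femur and rose in the ulna, with a difference of -2.92 ± 0.27.

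Type I collagen and early osteoblast factors also responded more to stress fracture. Col1a1, the main protein of bone matrix (chr11:94936224-94953042), was at 2416, 3991 and 7812 in intact and 7041, 5245, 6518, 9983 and 6784 in fractured femurs, and at 355, 726 and 2122 in intact and 7408, 7081, 5204 and 9583 in injured ulnas. Its femur response was 0.74 ± 0.32 (adjusted p = 0.0383, lost without intact femur 3, 4, 5, 6 or 7 or fractured femur 1, 3, 4 or 5, with adjusted p up to 0.118), its ulna response 3.03 ± 0.35, and the difference -2.30 ± 0.47 (adjusted p = 6.01e-05). Sp7, the factor that commits cells to the osteoblast line, rose by 0.70 ± 0.16 and 1.90 ± 0.18, and Runx2, which acts before it, stood at 0.08 in the femur and rose by 0.80 ± 0.14 in the ulna. Dlx5, another early osteoblast factor, stood at -0.27 in the femur without a call and rose by 0.90 ± 0.18 in the ulna, a difference of -1.17 ± 0.24 (adjusted p = 5.46e-05). Differences were not called for Alpl, Ibsp and Smpd3, a sphingomyelinase needed for mineralisation.

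Levels in the intact bones differed too. All 15 osteoblast genes were lower in intact ulnas than in intact femurs, with a median log2 difference of -1.93, while in injured bones 6 were lower in the ulna and the median was 0.04. Col1a1 averaged 4577 ± 2082 in intact femurs (SD, n = 10) and 996 ± 555 in intact ulnas (SD, n = 9), against 7114 ± 1746 in fractured femurs (SD, n = 5) and 7319 ± 1795 in stress-fractured ulnas (SD, n = 4). Levels set across bones come from separate deposited tables and were put on 1 scale here. Over all genes the medians were -0.01 in intact and 0.09 in injured bones.

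Osteocyte genes gave the same direction. Of 8 genes, 7 had a difference below 0 and none above (median -2.73), against 23.5% below 0 over all genes. Full fracture lowered 7 and raised 1, against 34.1% and 31.3% of all genes. Stress fracture raised 4 and lowered 1, against 17.1% and 14% of all genes. The 1 lowered was Fgf23, whose fall lost its call without intact ulna 6 or 8 or stress-fractured ulna 1 or 2 (adjusted p up to 0.12).

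Dmp1, a mineral-binding matrix protein of young osteocytes (chr5:104202613-104214102), was at 106, 128 and 239 in intact femurs and 63.8, 34.7, 42.7, 104 and 34.9 in fractured ones, and at 26.5, 32.3 and 51.8 in intact and 80.6, 111, 70.8 and 140 in injured ulnas. Every fractured femur lay below every intact femur, and every injured ulna above every intact ulna. It fell by 1.45 ± 0.22 in the femur and rose by 1.56 ± 0.24 in the ulna, a difference of -3.01 ± 0.33 (adjusted p = 4.61e-11). Sost, which encodes the Wnt blocker sclerostin of mature osteocytes (chr11:101962458-101967015), was at 204, 332 and 422 in intact and 24.8, 14.6, 12.1, 43.2 and 10.3 in fractured femurs. In intact ulnas it was at 118, 143 and 183, a range that overlapped the injured ulnas given above. Sost fell by 4.09 ± 0.24 in the femur, stood at -0.37 in the ulna without a call, and differed by -3.72 ± 0.36 (adjusted p = 1.24e-12). Mepe, a phosphoprotein of osteocytes, behaved alike, with -3.08 ± 0.23 in the femur, 0.07 ± 0.25 in the ulna and a difference of -3.16 ± 0.34.

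Other genes with opposite calls came from varied families. Col22a1, a collagen of tissue junctions, fell in the femur and rose in the ulna with a difference of -2.83 ± 0.24. The same held for Slc36a2, an amino acid transporter (-2.81 ± 0.27), Ptprz1, a receptor phosphatase (-2.88 ± 0.25), and Lipc, a lipase named for the liver (-3.77 ± 0.45). Adjusted p of these 4 genes was 6.47e-10 or smaller. Tnni1, a troponin of slow muscle, also fell by 1.77 ± 0.44 in the femur and rose by 1.51 ± 0.48 in the ulna (-3.29 ± 0.65, adjusted p = 2.73e-05), where it was low, at 0.535, 0.829 and 1.23 in intact and 3.21, 3.46, 2.09 and 1.72 in injured bones. Its rise in the ulna lost its call without stress-fractured ulna 2 (1.36, adjusted p = 0.0512). Ostn, which encodes the secreted peptide osteocrin, was at 1.1, 0.793, 0.452, 1.45 and 0.763 in fractured femurs and 23.2, 19.4, 32.5 and 37.6 in injured ulnas, against medians of 9.98 and 15.4 in intact bones, and differed by -4.18 ± 0.39. Its rise in the ulna lost its call without stress-fractured ulna 4 or 5 (adjusted p = 0.0789 and 0.129).

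Osteoclast genes likewise responded more to stress fracture. Of 14 genes, 13 had a difference below 0 and none above, with a median of -1.37, against 23.5% below 0 over all genes. Single-library responses of the bones nevertheless overlapped in all but 1 of the 14, whereas they did not overlap in 45.4% of all genes tested. List scores ran from -0.59 to 0.66 in fractured femurs and from 0.44 to 1.4 in injured ulnas. Stress fracture raised 11 and lowered 1, against 17.1% and 14% of all genes. Full fracture raised 3 and lowered 3, against 31.3% and 34.1% of all genes.

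Ctsk, the collagen-degrading cathepsin of osteoclasts (chr3:95499256-95509362), was at 119, 255 and 426 in intact and 519.9, 371, 359, 818 and 374 in fractured femurs, and at 44.6, 52.4 and 69.1 in intact and 228, 355, 115 and 304 in injured ulnas. The femur groups overlapped, and the injured ulnas all stood above the intact ones. Ctsk rose by 0.88 ± 0.24 and 2.12 ± 0.26, a difference of -1.24 ± 0.35 (adjusted p = 0.00286). Ocstamp and Dcstamp, needed for osteoclast precursors to fuse, differed by -1.77 ± 0.40 and -1.64 ± 0.44, and Tnfrsf11a, which encodes the receptor RANK, by -1.37 ± 0.25. The rise of Dcstamp in the femur lost its call without fractured femur 4 (0.60, adjusted p = 0.0831). Car2, the carbonic anhydrase that supplies acid, fell in both bones and more in the femur (-2.26 ± 0.45). Red cells carry it too, their markers also fell (below), and their part in the fall of Car2 was not tested. Osteoclast genes were lower in intact ulnas than in intact femurs in 13 of 14 cases (median -1.27), and the median in injured bones was 0.00.

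**Figure D3:**
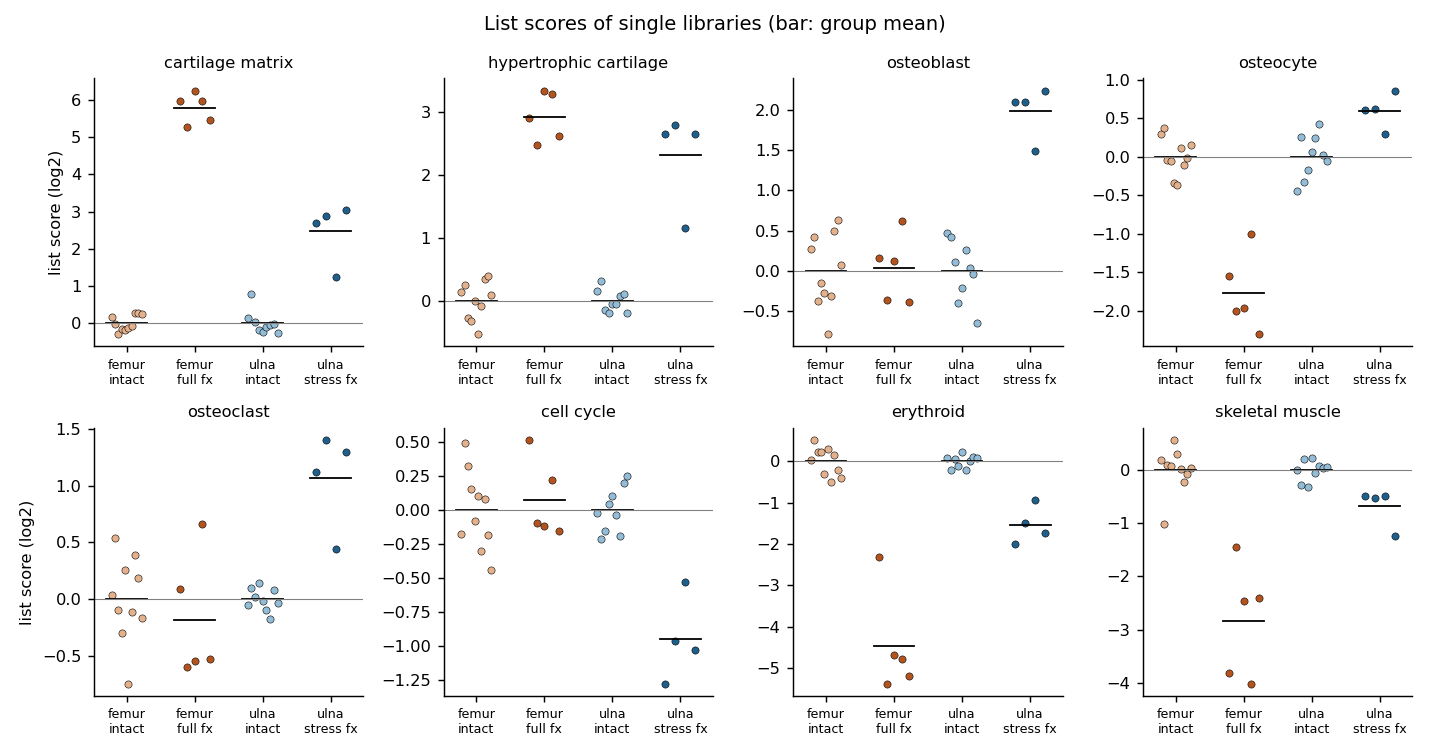
List scores, the mean log2 difference of a list's genes from the intact libraries of the same bone, in single libraries of the 4 groups, with a bar at the group mean. Cartilage scores run from 5.29 to 6.26 in fractured femurs and from 1.25 to 3.05 in injured ulnas, osteocyte scores from -2.30 to -1.01 and from 0.30 to 0.86, and fractured femur 1 stands apart in the erythroid list.

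Of 19 ligands and receptors of Wnt signalling, which favours bone formation, 6 had a difference above and 6 below 0, shares not far from the 23.5% called each way over all genes. Wnt11, a ligand that mainly acts without beta-catenin, rose by 1.62 ± 0.17 in the femur and stood at -0.01 in the ulna, and the receptors Fzd2 and Ror2 differed by 1.76 ± 0.27 and 1.14 ± 0.22. Differences were below 0 for Wnt1, a ligand that drives bone formation (-2.15 ± 0.41), Wnt4 (-1.31 ± 0.22), Wnt16 (-1.40 ± 0.27) and the co-receptors Lrp4 and Lrp5 (-1.11 ± 0.19 and -1.13 ± 0.15).

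Among 16 Wnt antagonists and targets, 4 had a difference above and 6 below 0, against 23.5% called each way over all genes. Frzb, a secreted antagonist first known from cartilage, and its relative Sfrp1 rose in both bones and more in the femur, with differences of 2.69 ± 0.38 and 2.48 ± 0.29. Antagonists of bone cells went the other way, with Wif1 at -2.21 ± 0.33, Sfrp4 at -1.99 ± 0.32 and Dkk1 at -2.53 ± 0.40. Adjusted p of these 5 genes was 7.56e-07 or smaller.

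Ligands of the BMP and TGF-beta family also divided, 4 above and 7 below 0 of 15, against 23.5% called each way over all genes. Inhba, which encodes the chain of activin A (chr13:16011851-16031621), was at 3.35, 3.82 and 4.84 in intact femurs and 55.4, 42.5, 43, 64.1 and 39 in fractured ones. In ulnas it was at 2.02, 2.25 and 3.1 in intact and 2.76, 2.41, 2.8 and 2.94 in injured bones, which overlapped. Its response was 3.62 ± 0.16 in the femur and 0.17 ± 0.17 in the ulna, a difference of 3.45 ± 0.23 (adjusted p = 4.12e-18). Gdf5, a ligand of joint and cartilage formation, reached 11.7, 5.86, 9.37, 11.4 and 4.5 in fractured femurs and at most 0.334 in injured ulnas, and differed by 3.90 ± 0.48. Bmp3 (-2.39 ± 0.23), Bmp7 (-2.40 ± 0.27), Bmp4 (-1.87 ± 0.20) and Bmp8a (-1.50 ± 0.33), growth factors of the bone morphogenetic family, were below 0. Smad6, an inhibitor induced by BMP, fell by 0.42 ± 0.13 in the femur and rose by 0.96 ± 0.14 in the ulna.

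Fibrous matrix genes rose after both injuries. All 16 of them, which encode collagens and partners of scar and tendon, rose in both bones. Their medians were 2.46 in the femur and 1.90 in the ulna. Over all genes 31.3% rose in the femur and 17.1% in the ulna. The difference was above 0 in 5 and below 0 in 1, against 23.5% called each way over all genes. Fn1, the scaffold protein fibronectin, was at 1569, 1141, 1545, 1691 and 1384 in fractured femurs and 235, 246, 146 and 208 in injured ulnas, from medians of 84.0 and 46.8, and differed by 1.98 ± 0.30 (adjusted p = 2.43e-07). Col3a1, the collagen of soft callus and scar (0.59 ± 0.37), Postn, a matrix protein of the periosteum (0.73 ± 0.40), and Tnc, which encodes tenascin C (-0.04 ± 0.21), had no called difference.

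Enzymes that modify and fold collagen rose in both bones as well, and mostly more in the femur. All 15 collagen processing genes rose after each injury, against 31.3% of all genes in the femur and 17.1% in the ulna. Of the 15, 11 had a difference above 0 and none below (median 1.10), against 23.5% each way over all genes. Plod3, which hydroxylates collagen lysines, was at 12.9, 14 and 16.6 in intact and 97.1, 77.5, 75.9, 82.5 and 72.7 in fractured femurs, and at 9.49, 10.2 and 11.2 in intact and 15.6, 15.8, 13.1 and 14.4 in injured ulnas. The injured libraries stood above the intact ones in both bones. Plod3 differed by 1.97 ± 0.13 (adjusted p = 4.12e-18), the cross-linking enzyme Loxl3 by 2.32 ± 0.18 and P4ha2, which hydroxylates prolines, by 2.02 ± 0.21. Serpinh1, the collagen chaperone (0.55 ± 0.29), and Lox, the main cross-linking oxidase (-0.44 ± 0.37), had no called difference.

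The wider secretory machinery followed, with 13 of 15 genes of the endoplasmic reticulum above 0 and 1 below (median 0.92). Over all genes 23.5% were called each way. Hspa5, the chief chaperone of that compartment, rose by 1.57 ± 0.11 in the femur and stood at 0.20 in the ulna. Sec61b, a subunit of the channel for secreted proteins, differed by 1.79 ± 0.21 and Pdia4, which forms disulfide bonds, by 1.51 ± 0.16. The exception was Creb3l1, a transcription factor that drives type I collagen secretion in osteoblasts, which rose more in the ulna (-1.36 ± 0.32, adjusted p = 0.000369).

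Glycolysis and hypoxia genes moved unevenly, with 7 of 16 differences above and 1 below 0 (median 0.46), against 23.5% each way over all genes. Slc2a1, the glucose transporter GLUT1 (chr4:119108711-119137983), was at 4.89, 5.75 and 6.84 in intact femurs and 39.1, 20.4, 37.1, 42.2 and 26.1 in fractured ones. In ulnas it was at 11.8, 16.4 and 23.6 in intact and 14.2, 15.7, 13 and 9.46 in injured bones, and these overlapped. It rose by 2.47 ± 0.15 in the femur, stood at -0.36 in the ulna and differed by 2.83 ± 0.22 (adjusted p = 8.22e-16). Pfkl, which controls entry into glycolysis, differed by 2.11 ± 0.14, Eno1, a glycolytic enolase whose reads its processed copies can share, by 2.08 ± 0.14, and Car9, a carbonic anhydrase induced by low oxygen, by 2.15 ± 0.24. Hif1a, the oxygen-regulated transcription factor, rose by 2.82 ± 0.11 and 0.66 ± 0.12, a difference of 2.16 ± 0.16 (adjusted p = 1.16e-16). Vegfa, Ldha and Pdk1, other targets of that factor, had no called difference and no called response in either bone. The 1 gene below 0 was Aldoa, an aldolase abundant in muscle (-1.08 ± 0.39). Without stress-fractured ulna 2 that count was 0, and without intact ulna 1 or stress-fractured ulna 5 it was 2.

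Cell cycle genes fell after stress fracture and mostly did not pass the test after full fracture. Of 18 genes, 17 had a difference above 0 and none below (median 1.04), against 23.5% each way over all genes. All 18 fell in the ulna, against 14% of all genes. In the femur 4 rose and 2 fell, against 31.3% and 34.1% of all genes. The count of femur rises was 2 without intact femur 7 or 10 or fractured femur 1 or 4.

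Cdk1, the kinase that starts mitosis (chr10:69335146-69352938), was at 4.81, 6.34 and 8.78 in intact and 18.2, 12.2, 11.7, 14.7 and 10.6 in fractured femurs, and at 8.89, 11.3 and 12.7 in intact and 4.89, 6.38, 7.72 and 6.54 in injured ulnas. Neither pair overlapped, and they moved in opposite directions. It rose by 1.05 ± 0.16 in the femur and fell by 0.79 ± 0.18 in the ulna, a difference of 1.84 ± 0.24 (adjusted p = 4.2e-09). Cdc20, which triggers the end of metaphase, and Pbk, a mitotic kinase, gave opposite calls as well, with differences of 1.72 ± 0.24 and 2.05 ± 0.23, and so did Kif20a, a kinesin of cell separation (1.58 ± 0.21), and Cenpm, a centromere protein (1.45 ± 0.28). Intact levels differed, as all 18 cell cycle genes were higher in intact ulnas than in intact femurs (median 0.76), and 14 were lower in injured ulnas than in injured femurs (median -0.24). Among markers of blood-forming marrow, a dividing tissue, all erythroid and B cell genes were also higher in intact ulnas (medians 0.80 and 1.33). Of 8 platelet and megakaryocyte and 15 neutrophil genes, 4 and 5 were lower there (medians 0.06 and 0.24). Median responses of these lists were below 0 in both bones, and the part of marrow in the cell cycle result was not tested.

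Hmox1, the enzyme that breaks down haem, was another gene with opposite calls. It was at 12.6, 22 and 57.5 in intact and 57.8, 56.4, 49.4, 47.4 and 56.7 in fractured femurs, and at 20.1, 35.9 and 52.8 in intact and 15.6, 17.3, 16.7 and 18.7 in injured ulnas. The femur groups overlapped, and the injured ulnas all stood below the intact ones. Hmox1 rose by 1.18 ± 0.22 in the femur and fell by 1.03 ± 0.24 in the ulna, a difference of 2.22 ± 0.32 (adjusted p = 7.43e-08).

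Erythroid genes fell in both bones and further in the femur. Of 12 erythroid genes, 11 had a difference below 0 and none above (median -3.09), against 23.5% below 0 over all genes. Their medians were -4.71 in the femur and -1.52 in the ulna. Slc4a1, the anion exchanger of red cells, was at 97.9, 145 and 220.4 in intact and 24.1, 1.26, 2.71, 2.65 and 1.74 in fractured femurs, and at 178, 259.9 and 314 in intact and 61.7, 116, 139.7 and 63.8 in injured ulnas. Fractured femur 1 stood above the other 4. Slc4a1 fell by 5.41 ± 0.40 in the femur and by 1.52 ± 0.43 in the ulna, a difference of -3.89 ± 0.59 (adjusted p = 1.85e-07). Without fractured femur 1 the list had 12 differences below 0 and a median of -3.66. Over the whole list, the summed level ran from 2425 to 5110 scaled RPKM in intact and from 87.1 to 599 in fractured femurs, and from 4893 to 8430 in intact and from 1531 to 3057 in injured ulnas. No library was free of these genes, marrow was spun out of the femurs alone per the protocol, and the part of marrow in other differences was not tested.

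Platelet and B cell genes followed the same order, and over all genes 23.5% had a difference below 0. All 8 platelet and megakaryocyte genes had a difference below 0 (median -3.60), with Ppbp, a chemokine stored in platelets, at 12, 3.96, 6.79, 5.99 and 3.73 in fractured femurs and 102, 132, 155 and 141 in injured ulnas from medians of 231 and 258. Ppbp differed by -4.48 ± 0.45 (adjusted p = 3.19e-12), and the platelet receptor Treml1 and the platelet tubulin Tubb1 by -4.31 ± 0.47 and -4.17 ± 0.45. All 8 also fell in the ulna, against 14% of all genes. Without stress-fractured ulna 1, 2 and 5 this count was 2, 4 and 5 in that order. Of 11 B cell genes, 9 had a difference below 0 and none above (median -1.95), and 3 did with 1 in place of 0.1 added before the log. Cd79b, part of the B cell receptor, was at 1.41, 0.591, 1.04, 1.12 and 0.59 in fractured femurs and 9.91, 7.21, 10.8 and 10.5 in injured ulnas and differed by -1.95 ± 0.42.

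Skeletal muscle genes had a difference below 0 in 15 of 15 cases (median -1.99), against 23.5% of all genes. Full fracture lowered all 15, against 34.1% of all genes. None passed the test after stress fracture, or 1 did without intact femur 2 or fractured femur 1, 2 or 4. Myl3, a myosin light chain of slow muscle and heart, was at 119, 312 and 455 in intact and 6.74, 25.4, 8.59, 3.47 and 11.2 in fractured femurs, against 0.987, 1.88 and 3.28 in intact and 1.34, 0.818, 1.63 and 1.94 in injured ulnas, so that intact ulnas held little of it to begin with. It differed by -4.32 ± 0.61 (adjusted p = 4.08e-08). The protocol names removal of soft tissue from both bones, and the summed level of the list ran from 11860 to 36340 scaled RPKM in intact and 1957 to 11530 in fractured femurs, and from 13960 to 21190 in intact and 6974 to 14080 in injured ulnas. The part of attached muscle in other differences was not tested. Without fractured femur 1 the count of differences was 11 and the median -1.74.

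Fat and mast cell genes had differences below 0 too, where the share over all genes was 23.5%. Of 9 adipocyte genes, 6 had a difference below 0 and none above (median -2.36), and for Adipoq, which encodes adiponectin, a hormone of fat cells, it was -2.87 ± 0.40 while for Lpl, a lipase that frees fatty acids, it was -2.36 ± 0.31. With 1 added before the log, 4 were below 0. Of 7 mast cell genes, 6 were below 0 and none above (median -1.72). Cma1, the mast cell chymase, stood at -0.24 in the femur and rose by 1.70 ± 0.44 in the ulna, a difference of -1.94 ± 0.59 (adjusted p = 0.0052). Myoc, the secreted protein myocilin, fell by 4.49 ± 0.36 in the femur and stood at 0.43 in the ulna. Its difference was among the largest below 0 under the rules for named genes (-4.92 ± 0.53, adjusted p = 4.1e-11).

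Counts of the immune lists moved with single libraries, and over all genes 23.5% were called each way. Of 15 macrophage genes, 8 had a difference above 0 and 2 below, but 4 and 2 without fractured femur 2 or 5 or stress-fractured ulna 4, and 1 and 2 on the RPKM as deposited. Trem2, a lipid receptor of tissue macrophages (1.32 ± 0.29), was above 0, and Csf1r, the growth factor receptor shared with osteoclast precursors (-0.80 ± 0.19), and Cd163, the haemoglobin scavenger receptor (-2.18 ± 0.27), were below. Of 15 neutrophil genes, 5 were below 0 and none above, 3 without fractured femur 4 and 2 without stress-fractured ulna 4. Their medians were -1.4 in the femur, where all 15 fell, and -0.87 in the ulna, where 9 fell, or none without stress-fractured ulna 1 and 4 without ulna 2. Among them, Mpo, the granule peroxidase of young neutrophils, differed by -1.84 ± 0.46 (adjusted p = 0.000688). Of 16 cytokines and chemokines, 6 were above 0 and none below, or 3 with 1 added before the log, among them the monocyte chemokine Ccl7 (2.31 ± 0.52) and Il11, a cytokine of the interleukin 6 family (1.39 ± 0.38).

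Some of the strongest shared responses had no called difference. Cthrc1, a secreted protein of matrix-forming fibroblasts and osteoblasts, was at 8.16, 17.5 and 34.2 in intact and 279.6, 328, 313, 204 and 329.8 in fractured femurs, and at 2.74, 4.54 and 9.75 in intact and 56.3, 47.8, 46.2 and 64.9 in injured ulnas. No injured library of either bone overlapped its intact ones. It rose by 4.15 ± 0.29 and 3.63 ± 0.32, and the interval of the difference ran from -0.35 to 1.4. Car12, a membrane carbonic anhydrase, rose by 4.10 ± 0.41 and 5.12 ± 0.45 (95% confidence interval -2.24 to 0.21 for the difference). Alad, an enzyme of haem synthesis, fell by 1.30 ± 0.16 and 1.25 ± 0.18 (95% confidence interval -0.54 to 0.44). These intervals bound the differences and do not show that they are 0.

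**Figure D4:**
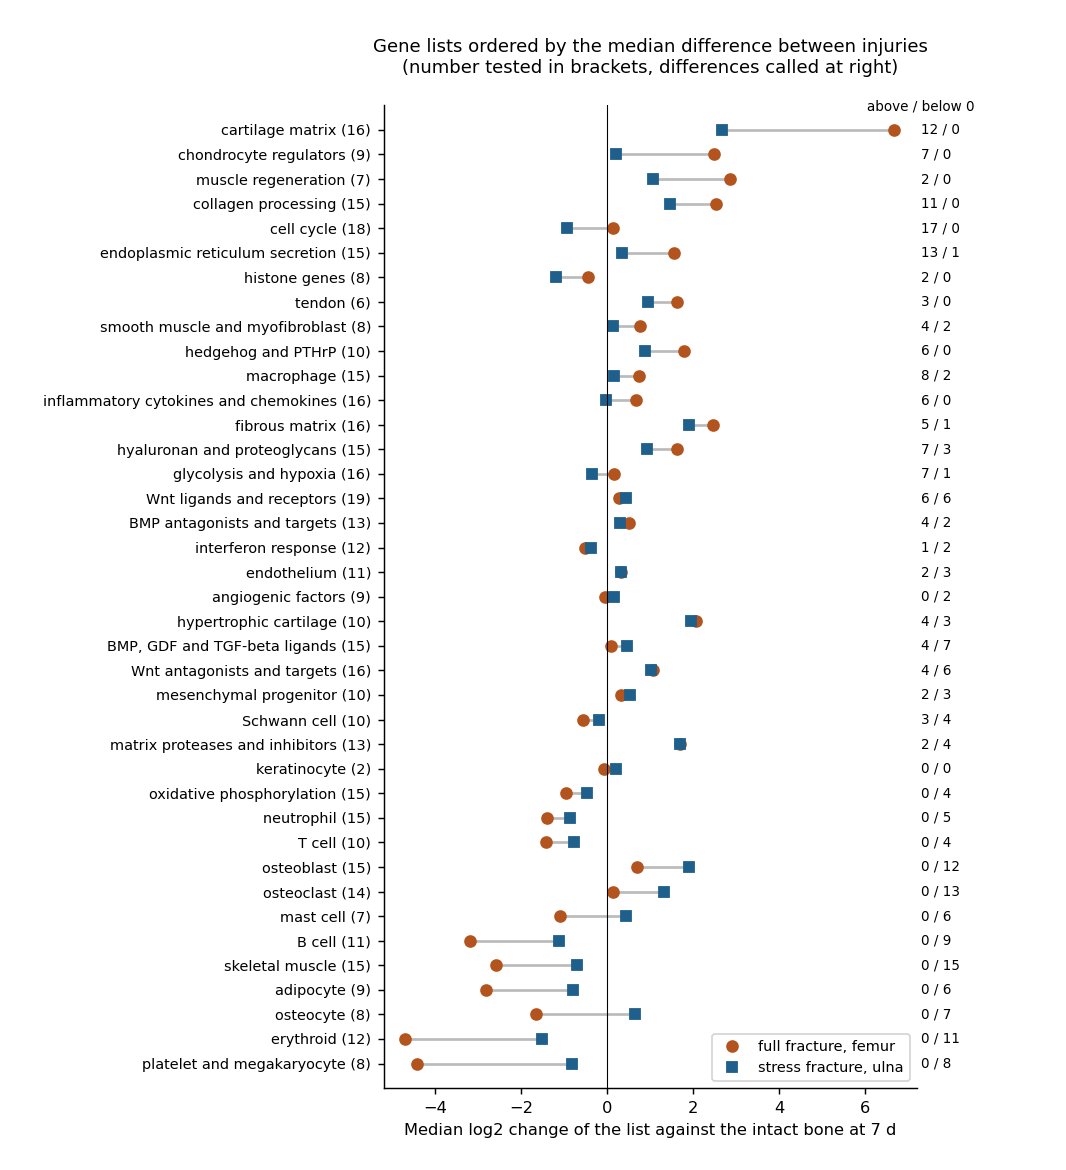
Median log2 response of 39 gene lists to full fracture (circles) and stress fracture (squares) at 7 d, ordered by the median difference, with the number of genes tested in brackets and the counts of differences called above and below 0 at right. Cartilage matrix stands at the top (6.66 and 2.67) and platelet and erythroid genes at the bottom.

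The other times place the 7 d difference on both courses. All contrasts of a bone share its intact libraries, so the times are not independent, and the values are given side by side. The median of the cartilage matrix list was 0.47 at 3 d, 6.66 at 7 d and 3.08 at 14 d after full fracture, and 1.14 at 3 d, 4.45 at 5 d and 2.67 at 7 d after stress fracture. The osteoblast median was 0.30, 0.70 and 1.45 in the femur and 1.26, 1.85 and 1.90 in the ulna at the same times. For osteoclasts the medians were -0.25, 0.13 and 2.58 in the femur and 0.13, 0.21 and 1.33 in the ulna, so the femur at 14 d stood above the ulna at 7 d. Cell cycle medians in the ulna were -0.47 at 3 d, -0.88 at 5 d and -0.95 at 7 d.

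Single genes traced similar courses. Col9a1 stood at 2.80, 8.76 and 4.85 at 3, 7 and 14 d after full fracture and at 0.39, 5.51 and 2.90 at 3, 5 and 7 d after stress fracture. Bglap stood at -3.34, -3.19 and -0.12 in the femur and at 1.20, 1.85 and 2.16 in the ulna. Inhba stood at 2.94 in the femur at 4 h, and at 3.16 and 3.62 at 3 and 7 d, and did not exceed 0.91 at any time in the ulna. Gzme stood at 3.75, 3.35, 6.51 and 2.09 at 1, 3, 7 and 14 d in the femur and between 0 and 0.38 in the ulna.

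**Figure D5:**
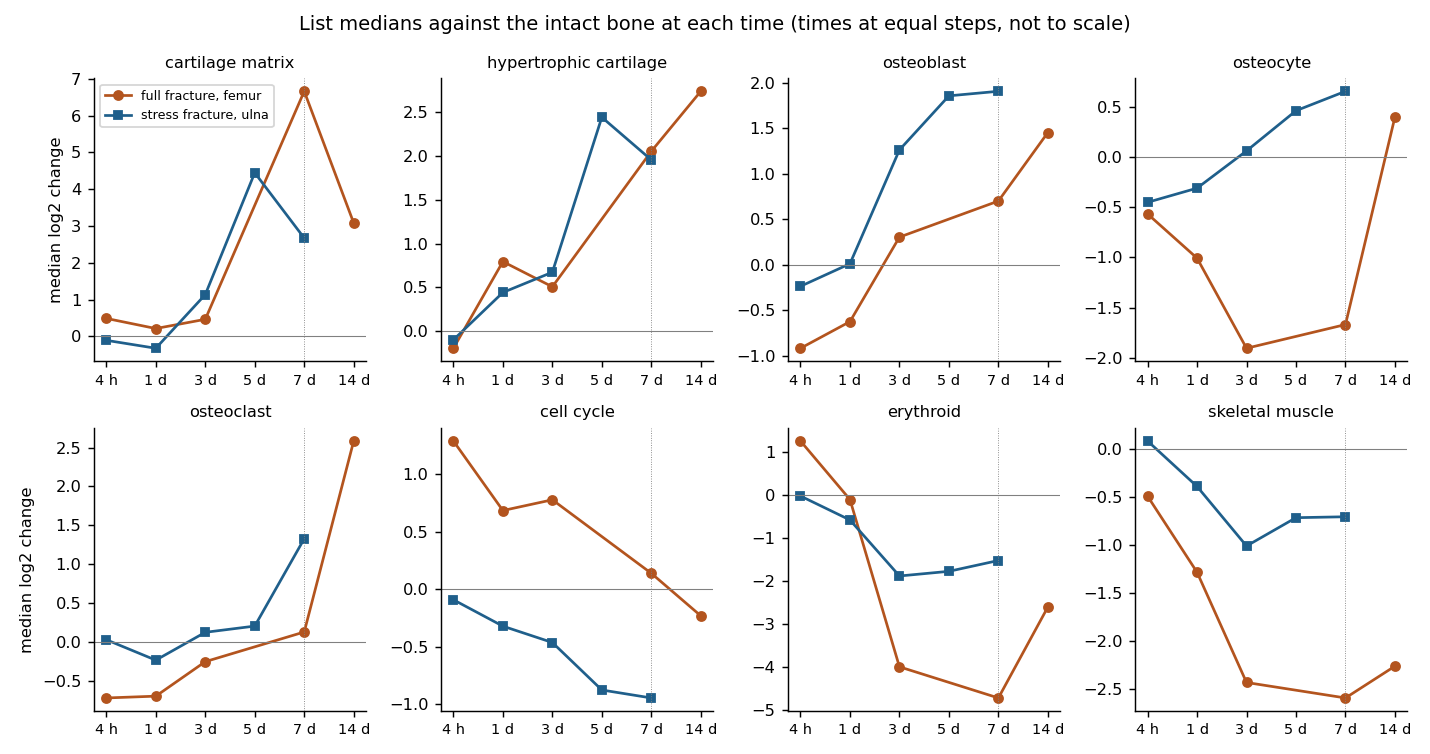
Median log2 change against the intact bone at each time for 8 gene lists, after full fracture (circles) and stress fracture (squares), with times at equal steps and a dotted line at 7 d, the latest time measured in both bones. Cartilage medians are highest at 7 d in the femur (6.66) and at 5 d in the ulna (4.45).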

How the data were processed

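RNA was sequenced as rRNA-depleted total RNA of bone sections. Per the submitters' processing notes, the tools were STAR 2.4.2a, Subread, featureCounts 1.4.6 and DESeq2 with the mm10 build, and the deposited tables give RPKM per gene for each library. The authors also deposited log2 fold changes and adjusted p-values, made with DESeq2 per the submitters' processing notes and used here only as an alternative. Of all rows, 27 per bone carried dates in place of gene names (0.101% and 0.104% of RPKM) and were left out.

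RPKM were divided by median-of-ratios factors (0.782 to 1.18, from 17516 genes above 0 in every library). A gene was tested where 5 or more libraries held 0.5 scaled RPKM or more, and log2(scaled RPKM + 0.1) was fitted with limma 3.58.1 (trend and robust options, R 4.3.3) as 1 mean per group over all 67 libraries. The contrast of both responses was tested two-sided with Benjamini-Hochberg adjustment at 0.05, and the procedure was tested on simulated data. Recovered depth came out whole within 0.01 reads for 88.7% to 91.4% of values under 20 reads, and averaged 21.3 ± 5.64 M in fractured femurs (SD, n = 5), 18.1 ± 2.33 M in intact femurs (n = 10), 15.8 ± 2.06 M in injured ulnas (n = 4) and 13.4 ± 2.91 M in intact ulnas (n = 9).

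Members, gene lists and rules were chosen with earlier results of these data known. Named genes were the 12 largest called differences in each direction, up to 8 genes called in opposite directions each way, 6 strong shared responses each way, and list members. All but list members had to reach a minimum level in the highest of the 4 group means. The 12 largest in each direction also had no overlap between single-library responses of the bones, so that lack of overlap was part of the choice. Nothing in the labels says whether libraries of a group came from separate extractions, so p-values measure the spread between these libraries. Alternatives were the pseudocount, the filter, the scaling, the libraries fitted and each library left out in turn. Gene positions are from GENCODE M21 and start regions from RefSeq. Results of 4 genes were left out.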

Additional observations from a re-analysis of the deposited data

Results flagged for a closer look

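List scores of single libraries stood apart in 12 of 156 groups of libraries under a test that flags about 5% of groups by chance. Intact femur 2 was such a library for skeletal muscle (-1.02, others -0.21 to 0.56), oxidative phosphorylation (-0.64, others -0.14 to 0.34), platelet and megakaryocyte (0.83, others -0.35 to 0.17) and keratinocyte genes (-0.58, others -0.19 to 0.24). Intact ulna 2 stood high in cartilage matrix (0.79, others -0.27 to 0.13), tendon (0.63, others -0.25 to 0.17), hyaluronan and proteoglycan (0.35, others -0.14 to 0.10) and mesenchymal progenitor genes (0.24, others -0.13 to 0.05).

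Among injured bones, stress-fractured ulna 4 was low for hypertrophic cartilage (1.16, others 2.65 to 2.80) and for matrix proteases and inhibitors (0.94, others 1.63 to 1.70). Stress-fractured ulna 5 was low for skeletal muscle (-1.25, others -0.52 to -0.48). Fractured femur 1 was high for erythroid genes (-2.32, others -5.38 to -4.68).

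The response itself differed between the injuries, by the limma contrast, in 9911 genes. In 707 of them both responses were called and had opposite signs.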

How the results depend on the processing

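No called value of a named gene changed sign under the alternatives run. Of the counts of genes, 1 left the range of 1.5 times its value with another setting on the full set of libraries. With 1 added before the log, 987 genes in place of 2506 had a difference of at most -1. Leaving out 1 library at a time gave 267 (without stress-fractured ulna 1) to 433 genes raised in the femur and lowered in the ulna, 210 to 338 of the converse, 4701 to 5027 differences above 0 and 4529 to 4962 below. The count of 267 also lay outside the range of 1.5 times. Of 332 values of named genes, calls were lost for 24 on the RPKM as deposited, 25 with 1 added, 23 with no filter, 5 with upper-quartile scaling, 8 with the 28 libraries alone, and 5 to 29 without 1 library, the most without stress-fractured ulna 4. Upper-quartile scaling moved the split of calls to 5133 above and 4764 below 0. Of 15114 genes in the authors' deposited tables of both bones, 8739 had a called difference here, and all 8739 had the same sign there, from the same libraries. In size, 19 called differences of named genes lay further from the deposited ones than their standard error and 260 did not. Among the 19, the difference of Bglap was -4.55, of Col1a1 -1.72 and of Slc4a1 -2.75 in the authors' deposited table. Genes near 0 in 1 bone, such as the granzymes, are limited by depth. No paired analysis was possible because the columns cannot be tied to animals. The planned use of all intact femurs as controls gave no other value, since these are the controls already.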

Other observations

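Smooth muscle and myofibroblast genes were split, and over all genes 23.5% were called each way. Of 8 tested, 4 had a difference above 0 and 2 below, or 1 below without fractured femur 1 or 4 or stress-fractured ulna 2 or 4. Acta2, the actin of contractile myofibroblasts, rose by 2.29 ± 0.23 in the femur and stood at 0.30 in the ulna, a difference of 1.98 ± 0.34 (adjusted p = 2.35e-06), and Actg2, an actin of visceral smooth muscle, differed by 4.42 ± 0.47 (adjusted p = 2.6e-11). Mylk, the kinase that drives smooth muscle contraction, fell by 1.06 ± 0.07 in the femur and differed by -1.20 ± 0.10 (adjusted p = 2.48e-14), and Myh11, the myosin of mature smooth muscle, had no called difference. Of 6 tendon genes, 3 were above 0 and none below, with Tnmd, a membrane protein of tendon cells, at 2.10 ± 0.46 and Scx, their transcription factor, at 1.34 ± 0.36.

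Of 15 hyaluronan and proteoglycan genes, 7 had a difference above 0 and 3 below, against 23.5% called each way over all genes. Has2, the main hyaluronan synthase, rose by 4.85 ± 0.20 in the femur and 1.59 ± 0.22 in the ulna, a difference of 3.26 ± 0.30 (adjusted p = 3.35e-13), and Tnfaip6, which modifies hyaluronan, differed by 2.80 ± 0.32 (adjusted p = 2.36e-10). The proteoglycans Bgn and Lum, which space collagen fibrils, rose in both bones with no called difference (95% confidence interval -0.26 to 0.50 and 95% confidence interval -0.83 to 0.32). Of 11 endothelial genes, 2 had a difference above 0 and 3 below, shares near the 23.5% called each way over all genes. Leaving out 1 library gave 1 to 2 above and 1 to 3 below. Erg was above 0 (0.83 to 1.02 under the alternatives run) and Vwf below (-1.94 to -1.55). The endothelial receptors Pecam1 and Cdh5 had no called difference (95% confidence interval -0.06 to 0.43 and 95% confidence interval -0.35 to 0.23).

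Of 7 genes of muscle regeneration, which satellite cells and young fibres express, 2 had a difference above 0 and none below (median 1.49), a share near the 23.5% of all genes above 0. The count was 1 without intact femur 2, fractured femur 2, 3 or 5 or stress-fractured ulna 1 or 5, and 4 without intact femur 5 or fractured femur 4. Of 15 oxidative phosphorylation genes, 4 had a difference below 0 and none above (median -0.44), a share near the 23.5% of all genes below 0. That count was 8 without intact femur 2, 2 without fractured femur 1 or stress-fractured ulna 1, 1 without fractured femur 4, and 8 on the RPKM as deposited.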
